A study of Mus musculus with 22 samples.

Results

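Ependymal cells of the mediobasal hypothalamus formed cluster 6 of the single-cell RNA-sequencing (scRNA-seq) dataset of whole cells. The cells were those to which the authors' metadata gave cluster number 6, which comprised 3575 of 54890 whole cells (6.51%) and of 79855 barcodes when the single nuclei of the series were counted too. They came from 12 male Lep ob/ob mice of 11 weeks, a strain that lacks leptin and is obese, and each mouse was 1 sample. By a single injection, 6 mice received 3 µg of fibroblast growth factor 1 (FGF1) intracerebroventricularly (icv) and 6 received PBS vehicle and were then pair-fed (PF) to the FGF1 mice, and the hypothalamus was taken on Day 5 and dissociated into cells. The comparison addressed how these cells differed between the treatments at that time. An earlier time, Day 1, was measured in nuclei of 3 FGF1 and 3 PF vehicle mice, which were also male Lep ob/ob mice of the same age and dose but were kept on another chow. The mice of the nuclei came from Jackson Laboratories (B6.Cg-Lep ob/J) and those of the whole cells from Janvier Labs (B6.V-Lep ob/JRj).

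Ependymal cells are the ciliated epithelium that lines the brain ventricles. Each carries a tuft of motile cilia that moves cerebrospinal fluid over the ventricular wall, and in the third ventricle they lie above the tanycytes, which line its floor and lower walls. Motile cilia are built on an axoneme of microtubule doublets, on which dynein arms act as motors, radial spokes and the central pair regulate the beat, and nexin links hold the doublets together. The programme is switched on by Foxj1 with transcription factors of the RFX family, which bind DNA as dimers at inverted copies of a short motif.

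One arm of that RFX motif was searched as GTTGCC on both strands in the 250 bases before and 50 bases after the start site of each gene, with sequences from RefSeq on build GRCm38.p6. It was present in the window of 14.1% of 27025 genes with a promoter and of 18.04% of 5249 genes tested in ependymal cells. Among ciliary lists, it was present in 9 of 23 axonemal dynein genes (39.1%), 7 of 18 radial spoke and central pair genes (38.9%), 14 of 24 nexin link and inner microtubule genes (58.3%), 10 of 23 genes of intraflagellar transport (43.5%) and 8 of 13 multiciliation regulators (61.5%). In the other lists searched, the share ran from 1 of 16 immediate early genes (6.25%) to 4 of 11 complement and chemokine genes (36.4%). These are counts of a match to 6 letters and not of binding. The following 4 windows are given to show where the match lay, for the marker with the largest number of UMI-positive cells, for the leading gene with an inverted pair and for the 2 ciliary genes with the highest level among those with a match. The capitals mark GTTGCC or its reverse complement GGCAAC, and each sequence runs 5′ to 3′ along the strand of its gene.
Ccdc153, chr9:44240427-44240726, plus strand: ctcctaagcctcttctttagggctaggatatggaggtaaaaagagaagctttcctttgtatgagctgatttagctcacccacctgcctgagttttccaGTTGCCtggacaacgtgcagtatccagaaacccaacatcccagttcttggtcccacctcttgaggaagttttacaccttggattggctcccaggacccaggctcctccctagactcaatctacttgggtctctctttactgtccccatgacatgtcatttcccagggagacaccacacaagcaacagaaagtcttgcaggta
1110017D15Rik, chr4:41507715-41508014, minus strand: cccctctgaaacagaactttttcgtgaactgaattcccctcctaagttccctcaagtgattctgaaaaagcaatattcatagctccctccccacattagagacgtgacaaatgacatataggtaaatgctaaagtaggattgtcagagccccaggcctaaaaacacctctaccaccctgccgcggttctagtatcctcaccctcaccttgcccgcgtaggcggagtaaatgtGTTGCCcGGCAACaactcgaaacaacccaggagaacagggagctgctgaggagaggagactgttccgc
Dynlrb2, chr8:116504765-116505064, plus strand: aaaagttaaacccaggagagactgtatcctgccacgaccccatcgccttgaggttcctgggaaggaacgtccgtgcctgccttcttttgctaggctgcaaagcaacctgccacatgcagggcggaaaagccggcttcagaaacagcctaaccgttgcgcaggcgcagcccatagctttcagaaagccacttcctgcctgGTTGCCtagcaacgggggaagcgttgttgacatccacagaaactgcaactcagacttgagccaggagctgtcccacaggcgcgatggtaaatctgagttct
Fam183b, chr11:58801911-58802210, minus strand: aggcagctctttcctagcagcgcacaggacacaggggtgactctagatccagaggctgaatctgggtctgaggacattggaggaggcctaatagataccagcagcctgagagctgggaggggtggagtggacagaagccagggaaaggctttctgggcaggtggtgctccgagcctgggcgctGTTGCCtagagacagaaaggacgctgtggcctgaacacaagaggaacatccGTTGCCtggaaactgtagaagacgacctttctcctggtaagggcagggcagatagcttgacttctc
Counted from the start site, with negative positions upstream, the match began at base -152 in Ccdc153, at -51 in Dynlrb2 and at -67 and -16 in Fam183b. In 1110017D15Rik the matches at -18 and -11 lay on opposite strands 1 base apart, as an inverted pair, and a second window of this gene, at another start site, held no match. Of 7 leading genes of the cluster with a window, 2 held a match. Foxj1 and Rsph1 were among those without a window.

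A total of 6529146 unique molecular identifiers (UMIs, counted transcripts) was assigned to cluster 6, with a median of 1496 UMIs and 893 genes per cell. The mice gave 170 to 627 cells each except FGF1 mouse 6, which gave 19 cells and 21774 UMIs against 271233 to 1302815 in the other 11 mice. A count of 0 in FGF1 mouse 6 allows up to 119 CPM (counts scaled to the total of the genes tested in the mouse and by trimmed means, TMM) when 3 counts are taken as the limit, and 2.54 to 11.98 CPM in the other mice. Each of 6 batches of the metadata held 1 mouse of each treatment. Within cluster 6, 16 cells shared 8 barcode sequences between libraries, against 3616 of all whole cells. Calls of named genes that changed without FGF1 mouse 6 are given without it as well.

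The label was checked against marker genes, which is a description because the cells had been clustered on their transcriptomes. Ccdc153, a coiled-coil protein of ciliated cells, was counted at 1393 CPM and was detected in 80.4% of the cells. In the microglia-like cells of cluster 8, which should lack it, 1.497% of cells had a UMI at a median depth of 1263.5 UMIs. Tmem212 was counted at 1332 CPM, 87.9-fold above all other whole cells, and Cd24a, a surface glycoprotein, at 938 CPM, 35.8-fold above them. Hdc, which encodes histidine decarboxylase, the enzyme that makes histamine, reached 405 CPM and Cdhr3, a cadherin of ciliated epithelia, 204 CPM. The next highest cluster reached at most 82.3 CPM for any of the 5 markers, for Cd24a in cluster 16. All 5 markers thus had their highest level in cluster 6.

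**Figure D1:**
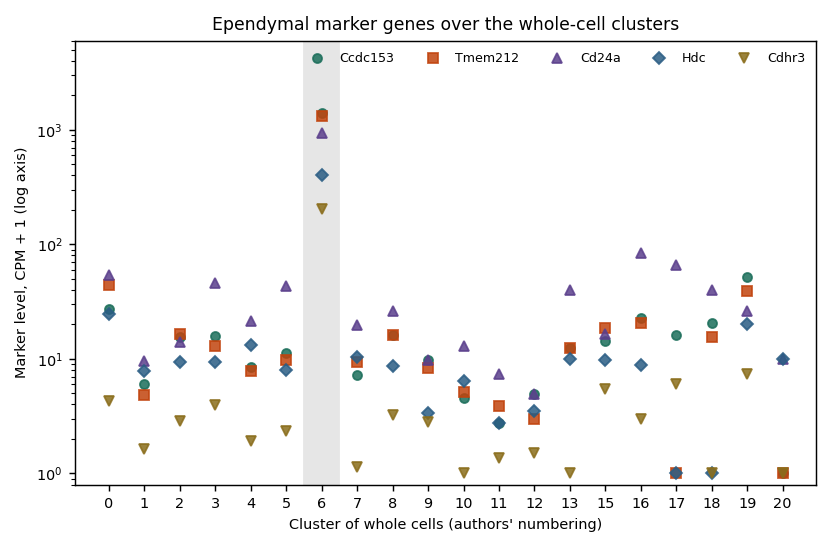
Level of the 5 ependymal markers in each cluster of whole cells (x axis, authors' cluster numbers; y axis, CPM + 1 on a log axis), with 1 symbol per marker and cluster 6 shaded. Each marker lies between 204 and 1393 CPM in cluster 6 and at or below 82.3 CPM in every other cluster.

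Other genes led the cluster as well. Foxj1 was counted at 667 CPM, 16.3-fold above the other cells, and Rsph1, a radial spoke protein, at 736 CPM, 13.5-fold above them. Gm10714 was 46.3-fold, 1110017D15Rik 22.1-fold and 3300002A11Rik 17.5-fold higher than in other cells. Gm10714 and 3300002A11Rik are annotated as antisense transcripts, and whether strand was used in counting is not given in the sources used here. Of the 3575 cells, 430 (12.0%) had a UMI of all 5 markers and 111 (3.10%) of none, with median depths of 2786 and 1015 UMIs. The number of markers seen in a cell therefore moved with its depth, and cells without a marker were not treated as a separate class.

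Markers of neighbouring cell types were counted in cluster 6 as well. Of the tanycyte markers, Scn7a, a sodium channel, stood at 105 CPM, above the 36.5 CPM of all other cells, whereas Rax, the transcription factor that defines tanycytes, stood at 3.22 CPM. Of the astrocyte markers, the water channel gene Aqp4 was counted at 254 CPM, 1.78-fold the level of all other cells, and was the only 1 of the 8 above them. The gap junction gene Gja1 was counted at 593 CPM, 0.973-fold their level, and the other 6 lay between 0.298-fold (Agt) and 0.502-fold (Gfap). None of the listed markers in the table was at 0 over the cluster. Summed over each list, the astrocyte markers lay between 2363 and 3399 CPM in FGF1 mice (median 2622) and between 2548 and 4007 CPM in PF vehicle mice (median 3423, exact two-sided permutation test, p = 0.0714). The endothelial and mural markers lay between 84.3 and 173 CPM (median 95.7) in FGF1 mice and between 115 and 188 CPM (median 157) in PF vehicle mice (exact permutation test, p = 0.0390). The neuronal markers had medians of 235 and 307 CPM (exact permutation test, p = 0.0671), and the oligodendrocyte markers of 1464 and 1924 CPM (exact permutation test, p = 0.584). The smallest p of the remaining lists in these exact permutation tests was 0.281. Adjusted over the 11 lists by Benjamini-Hochberg, the exact permutation p was 0.262 for the astrocyte, endothelial and neuronal markers.

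The cells also varied among themselves within each mouse. Over the 11 mice with at least 50 cells, the median residual variance of 5355 genes was 0.998, on a scale where counting noise alone gives about 1. Malat1, a nuclear non-coding RNA, had the largest value (9.13), followed by Cst3 (5.15), which encodes a secreted protease inhibitor, mt-Atp6 (4.57) and Actb (4.10). Fos, an immediate early gene, had a residual variance of 3.96 and was detected in 56.4% of the cells. Dbi, which encodes the diazepam-binding inhibitor, a secreted peptide precursor, was found in 99.9% of cells and still varied (3.95). Ptgds (3.08), a gene of oligodendrocytes, was found in 26.9% of cells of the cluster and in 44.3% of all other whole cells. The part of free RNA in its variation was not tested.

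The share of ependymal cells among whole cells did not differ between treatments beyond the spread between mice. It was 6.23 ± 2.82% (SD, n = 6) in FGF1 mice and 6.83 ± 2.46% (SD, n = 6) in PF vehicle mice (exact permutation test, p = 0.706). Without FGF1 mouse 6, in which the share was 0.796%, the difference changed sign to 0.48 percentage points (exact permutation test, p = 0.701). Within batches, the FGF1 mouse had the lower share in 3 and the higher in the other 3, with differences from -5.21 to 4.56 percentage points. Relative to ependymal cells and tanycytes together, ependymal cells made up 14.6 ± 5.04% in FGF1 mice and 27.7 ± 9.42% in PF vehicle mice (SD, n = 6 each, exact permutation test, p = 0.00649). The mean number of ependymal cells per mouse was 299 and 297, while that of tanycytes was 1534 and 867, so the second share moved with the number of tanycytes. Shares of dissociated cells depend on how many cells of each type survive, which was not tested.

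After icv FGF1, the ependymal cells of Day 5 had higher levels of 4 S100, annexin and galectin genes and lower levels of Etnppl, Per2 and the linker histones Hist1h1c and H1f0. Levels of named genes are given as TMM-scaled CPM, as the lowest, the median and the highest of 6 mice. Log2 fold changes are FGF1 over PF vehicle with their standard error (SE). Levels over all cells of a type, summed levels, levels given in the text as mean ± SD and levels of Day 1 nuclei are without TMM scaling. Counts were summed per mouse and tested with edgeR. Differentially expressed genes (DEGs) are those with a false discovery rate (FDR) below 0.05. Of 6734 genes tested, 1.28% passed, 0.535% of all genes as higher and 0.743% as lower. The 86 DEGs changed by 1.45 to 3.64-fold (median 1.78). In 85 of them the direction was the same in at least 5 of 6 batches. The DEGs were selected by the difference between these same mice, which favours such agreement, and the share over all genes is not given here. In 27 of the DEGs the groups did not overlap, against 72 (1.07%) of all genes tested. Without FGF1 mouse 6 they did not overlap in 38 of the 86, against 1.98% of all. Of the 86 genes, 79 were also called without FGF1 mouse 6, and the other 7 (Ppie, Pvalb, Itgb3bp, Prr13, 0610011F06Rik, Ak4 and Rab3a, of which the last 4 were named after their values were seen) then had FDRs of 0.0503 to 0.0673. Without that mouse the number of DEGs was 97 (46 higher, 51 lower). Of the 86 DEGs, 38 were also called with DESeq2, and 18 in each of the 12 edgeR fits that left out 1 mouse. DESeq2 called 52 with all 12 mice (27 higher, 25 lower) and 104 without FGF1 mouse 6 (73 higher, 31 lower). With edgeR, the number ranged from 30 without PF vehicle mouse 29 to 151 without PF vehicle mouse 22.

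The S100, annexin and galectin genes, which encode calcium-binding, membrane-associated and sugar-binding proteins, held 4 DEGs of 14 tested, all higher after FGF1. The median log2 fold change of the list was 0.27, against -0.02 over all genes. S100a6 (chr3:90612882-90624181) was counted at 2263, 2757 and 3096 CPM in FGF1 mice and at 1435, 1685 and 2264 CPM in PF vehicle mice. Its lowest FGF1 mouse and its highest PF vehicle mouse were within 2 CPM of each other, and the log2 fold change was 0.65 ± 0.14 (FDR = 0.0143). S100a11 (chr3:93520488-93526287), in the same gene cluster, lay at 477, 520 and 637 CPM against 240, 324 and 466 CPM. Its groups did not overlap (log2 fold change 0.67 ± 0.15, FDR = 0.0145). Anxa2 (chr9:69453620-69491795), whose product binds membranes with S100a10, lay at 396, 493 and 676 CPM against 254, 336 and 367 CPM, and its groups did not overlap either (0.55 ± 0.14 on the log2 scale, FDR = 0.0358). Lgals3, which encodes galectin 3, lay at 79.5, 204 and 293 CPM against 82.8, 126 and 143 CPM, with FGF1 mouse 6, at 2 UMIs, as the lowest of all (0.84 ± 0.17 on the log2 scale, FDR = 0.00571). With the astrocyte marker level of each mouse as a covariate, added after the data had been seen, these 4 genes had FDRs of 0.445 to 0.628, and none of the 36 raised DEGs was called. All 86 DEGs kept their direction in this fit. The astrocyte markers had medians of 2622 CPM in FGF1 and 3423 CPM in PF vehicle mice, and their part in these increases was not tested beyond this fit. S100a10 had a log2 fold change of 0.37 and S100b, a glial member of the family, one of -0.13, and neither passed. By the interaction tests given below, S100a11 rose less in ependymal cells than in tanycytes and astrocytes. Anxa2 and S100a6 rose less in ependymal cells than in astrocytes.

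Capg, which caps actin filaments, had the highest log2 fold change of all DEGs (1.86 ± 0.36, FDR = 0.0165), with 0, 48.8 and 112 CPM in FGF1 mice and 4.42, 17.4 and 29.8 CPM in PF vehicle mice. The value of 0 was that of FGF1 mouse 6, and without it the groups did not overlap. Gsn, which encodes the actin-severing protein gelsolin and was chosen after its value was seen, lay at 557, 835 and 1114 CPM against 424, 521 and 776 CPM (log2 fold change 0.65 ± 0.16, FDR = 0.0345). At 674 CPM it was also far above its levels in tanycytes, astrocytes, microglia-like and endothelial-like cells, the highest of which was 86.1 CPM in tanycytes. Its levels in oligodendrocytes and fibroblasts were not compared.

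Of the secreted and surface proteins, Adamtsl1, an extracellular matrix protein, had a log2 fold change of 1.52 ± 0.30 (FDR = 0.00938) and lay at 0, 64.9 and 84.7 CPM against 8.87, 16.6 and 32.8 CPM. Wnt8b (chr19:44493472-44514273), a Wnt ligand, lay at 0, 41.2 and 51.9 CPM against 8.83, 17.1 and 25.7 CPM (1.12 ± 0.27 on the log2 scale, FDR = 0.0219). Its level in tanycytes, astrocytes, microglia-like and endothelial-like cells was at most 2.70 CPM. Wls, the carrier that Wnt proteins need for secretion and a gene chosen after its value was seen, lay at 217, 287 and 387 CPM against 166, 188 and 223 CPM (0.64 ± 0.15 on the log2 scale, FDR = 0.0219). Kitl, the ligand of the receptor Kit, had a log2 fold change of 1.19 ± 0.29 (FDR = 0.0251), but its level of 22.8 CPM in ependymal cells was below the 266 CPM of endothelial-like cells. Flrt2, a membrane protein that carries fibronectin and leucine-rich repeats, had a log2 fold change of 1.14 ± 0.30 (FDR = 0.0433). For Capg, Adamtsl1, Flrt2 and Wnt8b, FGF1 mouse 6 had 0 UMIs, a count that at its depth allows up to 119 CPM.

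1500015O10Rik, which encodes the secreted peptide Ecrg4, was higher in FGF1 mice (318, 421 and 594 CPM) than in PF vehicle mice (187, 266 and 337 CPM). The lowest FGF1 mouse was mouse 6, and without it the groups did not overlap (log2 fold change 0.82 ± 0.16, FDR = 0.00222). It was called in each of the 12 fits that left out 1 mouse, as were Adamtsl1 and RP24-136L4.5 among the higher genes. RP24-136L4.5, a transcript without a single match in the annotation, lay at 32.2, 41.4 and 59.2 CPM against 8.83, 17.0 and 23.4 CPM, with no overlap between the groups (1.38 ± 0.26 on the log2 scale, FDR = 0.00152). Pvalb, which encodes the calcium buffer parvalbumin, lay at 28.0, 63.3 and 119 CPM against 11.8, 35.5 and 42.6 CPM (0.97 ± 0.24 on the log2 scale, FDR = 0.0343). The highest value was that of FGF1 mouse 6, at 3 UMIs. Ppie, a peptidyl-prolyl isomerase of the spliceosome, and Itgb3bp, a centromere protein, had log2 fold changes of 1.01 and 0.96, with FDRs of 0.0433 and 0.0413.

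**Figure D2:**
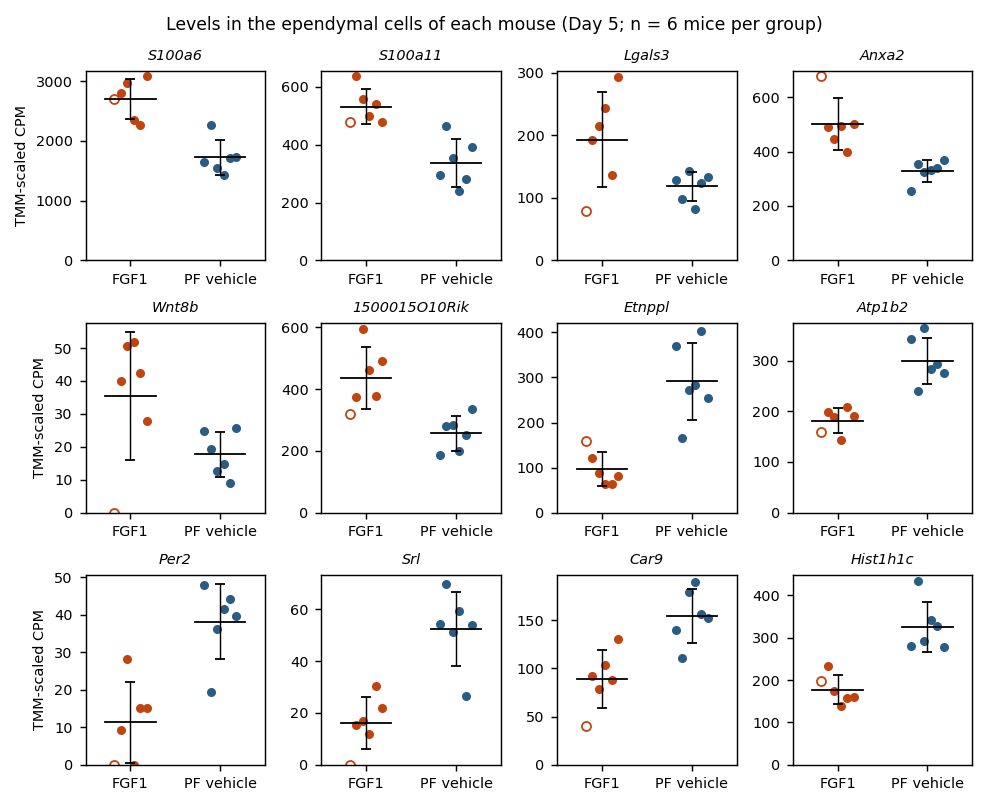
Level of 12 DEGs in the ependymal cells of each mouse (y axis, TMM-scaled CPM from 0; orange points, FGF1 mice; blue points, PF vehicle mice; lines, mean ± SD of 6 mice; open circle, FGF1 mouse 6 with 19 cells). The top row and the first 2 panels of the second row show genes higher in FGF1 mice and the others genes lower in them, and the groups do not overlap for S100a11, Anxa2, Etnppl, Atp1b2 and Hist1h1c.

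Of 30 axonemal dynein genes tested with edgeR, 0 were called (4 at an unadjusted p below 0.05, 0 with DESeq2), and their median log2 fold change was 0.07. Of all genes tested, 1.28% were called with edgeR and 13.5% had an unadjusted p below 0.05, and 2.24% were called with the batch as a block. DESeq2 called 1.82% of the genes to which it gave an adjusted p, which were 2862 of 15423. List members without an adjusted p count as not called with DESeq2, so a count of 0 does not cover all members. The counts of this and the following lists are read against these shares. Dynlrb2, a dynein light chain, lay at 1082, 1232 and 1392 CPM in FGF1 mice and at 681, 955 and 1187 CPM in PF vehicle mice (log2 fold change 0.36 ± 0.15, FDR = 0.253). The heavy chain gene Dnah12 lay at 119, 392 and 535 CPM against 317, 386 and 539 CPM (-0.02 ± 0.16 on the log2 scale, FDR = 0.988). Summed over the list and without TMM scaling, the dynein genes made up 4018 to 4527 CPM in FGF1 mice and 3647 to 4710 CPM in PF vehicle mice. Among 26 genes of intraflagellar transport and 13 multiciliation regulators tested with edgeR, 0 were called in each (3 in each at an unadjusted p below 0.05, 0 with DESeq2), with medians of 0.11 and -0.19. Foxj1 lay at 597, 729 and 755 CPM against 658, 706 and 926 CPM (-0.03 ± 0.14 on the log2 scale, FDR = 0.983). None of the 5 cluster markers was called, and their FDRs were between 0.241 for Cd24a and 0.974 for Cdhr3.

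Members of 2 ciliary lists passed the test. Among 21 radial spoke and central pair genes (median log2 fold change 0.05), Dnajb13 (chr7:100501716-100514960), a spoke component, was higher at 79.5, 97.9 and 124 CPM against 36.2, 54.96 and 87.1 CPM (0.82 ± 0.19, FDR = 0.0168). Ak8 (chr2:28700164-28813165), an adenylate kinase of the axoneme, was called lower, at 0, 28.0 and 33.8 CPM against 49.2, 51.8 and 61.9 CPM (-0.83 ± 0.20, FDR = 0.0251). The 0 was that of FGF1 mouse 6, whose depth allows up to 119 CPM, and without it the FGF1 mice lay between 23.96 and 33.8 CPM, below every PF vehicle mouse (FDR = 0.0259). Among 27 nexin link and inner microtubule genes (median 0.20), Meig1 (chr2:3409043-3422648), first known from spermatogenesis, was higher at 954, 1293 and 1544 CPM against 696, 812 and 1224 CPM (0.59 ± 0.15, FDR = 0.0413). It was also called in the endothelial-like cells, where its log2 fold change was 1.39 at a level of 32.7 CPM. In the same list, 1700007K13Rik (0.54, FDR = 0.0537) and Cfap126 (0.54, FDR = 0.0685) did not pass, and with the batch as a block 3 members were called higher. At an unadjusted p below 0.05 there were 9 of the 27 with edgeR, against 13.5% of all genes, and DESeq2 called 1. Summed over the list and without TMM scaling, these genes made up 6424 to 8267 CPM in FGF1 mice (median 7584) and 4959 to 7427 CPM in PF vehicle mice (median 6161), and the groups overlapped. Mlf1, a ciliary gene chosen after its value was seen, lay at 293, 347 and 676 CPM against 181, 235 and 274 CPM, with no overlap (0.60 ± 0.15, FDR = 0.0348).

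Of 7 tubulin genes tested with edgeR, 0 passed (2 at an unadjusted p below 0.05, 1 with DESeq2), with a median log2 fold change of 0.23. Their summed level, without TMM scaling, lay between 3117 and 3930 CPM in FGF1 mice and between 2067 and 2922 CPM in PF vehicle mice, without overlap. Tuba1a, an alpha tubulin, lay at 1511, 2085 and 2540 CPM against 1110, 1437 and 1690 CPM (0.52 ± 0.15, FDR = 0.0537), and without FGF1 mouse 6 it passed (FDR = 0.0287). The leading gene 3300002A11Rik showed the same dependence. It lay at 119, 873 and 1385 CPM against 166, 268 and 426 CPM, with 3 UMIs in FGF1 mouse 6 (log2 fold change 1.63 ± 0.36, FDR = 0.0556). Without that mouse the FGF1 mice lay between 654 and 1385 CPM, above every PF vehicle mouse, and the FDR was 0.0037.

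**Figure D3:**
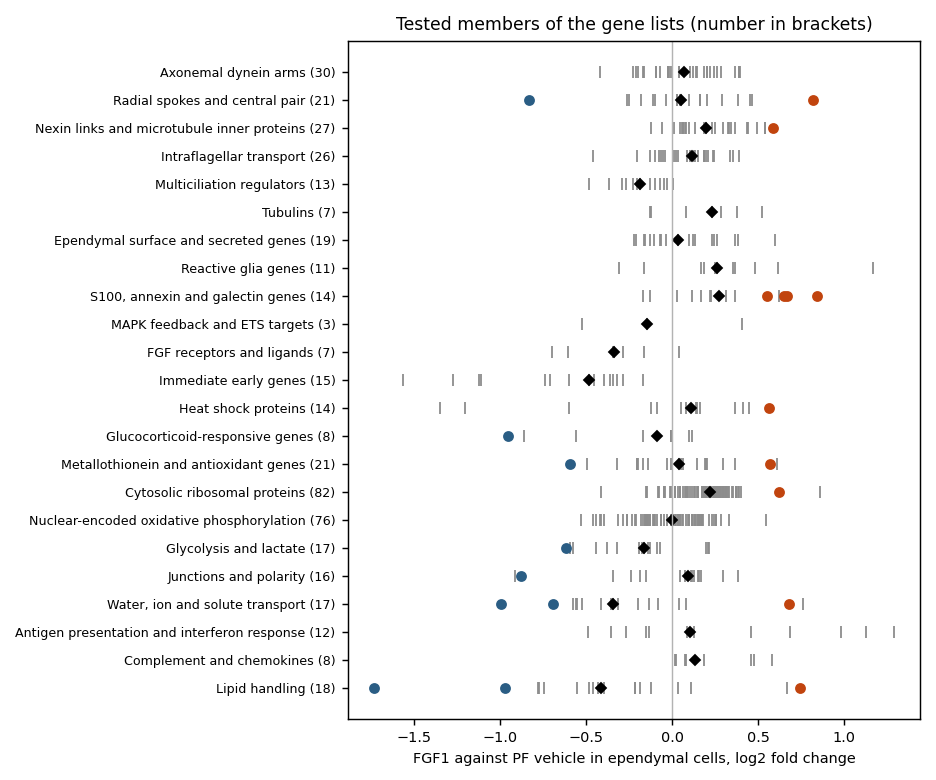
Log2 fold change of FGF1 against PF vehicle in ependymal cells for the tested members of 23 gene lists (x axis; number of tested members in brackets; grey ticks, members not called; orange and blue circles, members called higher and lower; black diamonds, medians). The S100, annexin and galectin list holds 4 members called higher, and no member of the axonemal dynein or immediate early gene lists was called.

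Etnppl (chr3:130617448-130637521), which encodes a phospholyase of phosphoethanolamine, was the gene with the lowest FDR. It lay at 63.5, 84.7 and 159 CPM in FGF1 mice and at 165, 278 and 404 CPM in PF vehicle mice, without overlap (log2 fold change -1.73 ± 0.20, FDR = 1.91e-05). It was called in all 12 fits that left out 1 mouse. Its level of 171 CPM in ependymal cells was above those of microglia-like (112 CPM) and endothelial-like cells (90.1 CPM) and below that of astrocytes (549 CPM). In endothelial-like cells of the same mice its log2 fold change was -1.13 (FDR = 0.00891) and in microglia-like cells -1.09 (FDR = 0.0925). In tanycytes it was -1.81 (FDR = 0.000746) and in astrocytes -0.60 (FDR = 0.000337). The interaction test gave a difference of 0.07 ± 0.16 (FDR = 0.969) between ependymal cells and tanycytes, and one of -1.13 ± 0.18 (FDR = 1.21e-06) from astrocytes.

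Of 18 genes of lipid handling tested, 1 was called higher and 2 lower, Etnppl included, and the list had a median log2 fold change of -0.41. Hmgcs1, an enzyme of cholesterol synthesis, lay at 42.4, 49.96 and 79.5 CPM against 56.2, 102 and 132 CPM (-0.97 ± 0.19, FDR = 0.0031). Abca1 (chr4:53030787-53159895), which exports cholesterol from cells, moved the other way, at 39.8, 163 and 180 CPM against 70.2, 92.7 and 116 CPM (0.74 ± 0.17, FDR = 0.0145). FGF1 mouse 6, with 1 UMI, was the lowest mouse for Abca1, and without it the groups did not overlap. Insig1 and Sqle, genes of cholesterol synthesis and its control chosen after their values were seen, had values of -0.77 and -0.40 and did not pass. Of the 18 genes of lipid handling, 4 had a positive value. No list of cholesterol synthesis alone was tested.

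Per1 and Per2, which encode repressors of the circadian clock, were both called lower. Per1 (chr11:69095217-69109960) lay at 36.3, 43.1 and 47.9 CPM against 44.5, 85.2 and 119 CPM (-0.96 ± 0.20, FDR = 0.00938), and Per2 (chr1:91415982-91459324) at 0, 12.2 and 28.2 CPM against 19.4, 40.6 and 48.0 CPM (-1.30 ± 0.30, FDR = 0.0219). No list of clock genes was tested. The level of Per1 in ependymal cells, 58.4 CPM, was below those of microglia-like (75.7 CPM) and endothelial-like cells (73.9 CPM), whereas that of Per2, 24.2 CPM, was above theirs (5.51 and 16.8 CPM). Hlf, a transcription factor with circadian output that was chosen after its value was seen, had a log2 fold change of -0.78 ± 0.20 (FDR = 0.0367). Dbp, of the same factor family, had a value of -0.25 and did not pass (FDR = 0.537). Of 8 glucocorticoid-responsive genes tested, 1 was called lower, Per1, and the median was -0.09. The labels do not give the time of day at which each mouse was taken.

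Genes whose level was higher in ependymal cells than in the other 4 cell types were also found among those that fell. Srl, which encodes the calcium-binding protein sarcalumenin, lay at 0, 16.1 and 30.3 CPM against 26.5, 54.0 and 69.7 CPM (-1.44 ± 0.25, FDR = 0.000695). The following were chosen after their values were seen, as lowered genes with the highest level in cluster 6. Car9 (chr4:43506966-43513729), a carbonic anhydrase of the cell surface, lay at 39.8, 90.0 and 130 CPM against 110, 154 and 189 CPM (-0.64 ± 0.17, FDR = 0.0384). It reached 116 CPM over all ependymal cells and at most 2.21 CPM in tanycytes, astrocytes, microglia-like and endothelial-like cells. Calb1, which encodes the calcium buffer calbindin, lay at 0, 131 and 141 CPM against 137, 198 and 276 CPM (-0.66 ± 0.17, FDR = 0.0348). The 0 was that of FGF1 mouse 6, whose depth allows up to 119 CPM, and the other FGF1 mice lay between 109 and 141 CPM. Casq2 (-0.92 ± 0.22, FDR = 0.0221), the calcium-binding calsequestrin of internal stores, and Cacna1s (-0.83 ± 0.20, FDR = 0.0269), a subunit of voltage-gated calcium channels, fell too. Casq2, Cacna1s and Srl were counted at 32.3 to 51.2 CPM, so single mice rest on few UMIs.

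No list of histone genes was tested. Hist1h1c (chr13:23738808-23740367), a linker histone chosen after its value was seen, lay at 140, 167 and 234 CPM against 279, 309 and 434 CPM, without overlap (-0.89 ± 0.15, FDR = 0.000695). H1f0, a linker histone of resting cells chosen in the same way, lay at 47.9, 97.1 and 119 CPM against 111, 150 and 215 CPM (-0.81 ± 0.18, FDR = 0.0111). Hist1h4h, a core histone, lay at 39.8, 66.4 and 124 CPM against 91.3, 168 and 213 CPM (-1.05 ± 0.23, FDR = 0.0231). Hist1h4i, a core histone gene chosen after its value was seen, had a log2 fold change of -0.35 and did not pass (FDR = 0.515).

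Of 17 water, ion and solute transport genes, 2 were called lower and 1 higher, and the median log2 fold change was -0.34. Atp1b2, which encodes a beta subunit of the sodium pump, lay at 144, 190 and 209 CPM against 240, 289 and 364 CPM, without overlap (-0.69 ± 0.14, FDR = 0.00791). Clic1, a chloride channel protein, was the member called higher (0.68 ± 0.16, FDR = 0.0197), and Slc1a2, a glutamate transporter, had a value of -0.56 (FDR = 0.0615). Glul, which encodes glutamine synthetase, lies outside the list and was chosen after its value was seen, was lower (-0.78 ± 0.16, FDR = 0.00733). Among 16 genes of junctions and polarity, the connexin gene Gjb6 was the 1 called lower (-0.88 ± 0.24, FDR = 0.0459). Among 17 glycolysis genes the 1 called lower was Aldoc (-0.61 ± 0.16, FDR = 0.0348), and among 21 metallothionein and antioxidant genes Gstm1 was called lower (-0.59 ± 0.15, FDR = 0.0348) and Prdx2 higher (0.57 ± 0.14, FDR = 0.0322).

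Of the lowered genes, some were no higher in ependymal cells than in cells of other lineages. The level in ependymal cells was compared with that in microglia-like cells (cluster 8, 1870 cells) and endothelial-like cells (cluster 3, 4113 cells) of the same mice, at median depths of 1263.5 and 1330 UMIs. Of the 50 lowered genes, 22 were at or below both levels, 18 above both, and 11 were highest in ependymal cells of the 5 types. Of the 36 raised genes, 1 was at or below both levels, 25 above both, and 19 were highest in ependymal cells. Glul was at 427 CPM in ependymal cells against 1085 CPM in microglia-like cells, 1278 CPM in endothelial-like cells and 2095 CPM in astrocytes, and Aldoc, Atp1b2, Gjb6, Per1 and Hmgcs1 were also at or below both levels. Syt1 (-1.52 ± 0.27, FDR = 0.00113), Scg2 (-1.58 ± 0.33, FDR = 0.00814) and Rph3a (-1.06 ± 0.27, FDR = 0.0343), genes of neuronal vesicles, were counted at 19.5 to 25.3 CPM in ependymal cells and at 22.4 to 38.6 CPM in microglia-like cells. Microglia should lack these 3 vesicle genes, so their level in ependymal cells cannot be told apart from background. For the other genes, the source of the UMIs was not tested.

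The same genes were tested in those other cells, which came from the same 12 mice. In microglia-like cells, 25 of the 50 lowered genes could be tested, 3 were called (0.262% of all genes tested there), and their median log2 fold change was -0.59. In endothelial-like cells, 39 could be tested, 9 were called (0.948% of all genes tested there), and the median was -0.35. For the raised genes, the medians were 0.18 over 11 genes tested in microglia-like cells and 0.31 over 22 in endothelial-like cells, with 0 and 1 called. When the astrocyte marker level of each mouse was added as a covariate, after the data had been seen, 5 genes remained called, whereas with the oligodendrocyte marker level in its place 107 genes were called (44 higher, 63 lower). These were Etnppl, Syt1, Srl, Hist1h1c and H1f0, and all 86 kept their direction. Aldoc belongs both to the astrocyte markers and to the lowered genes, and the part of astrocyte RNA in the other changes was not tested.

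**Figure D4:**
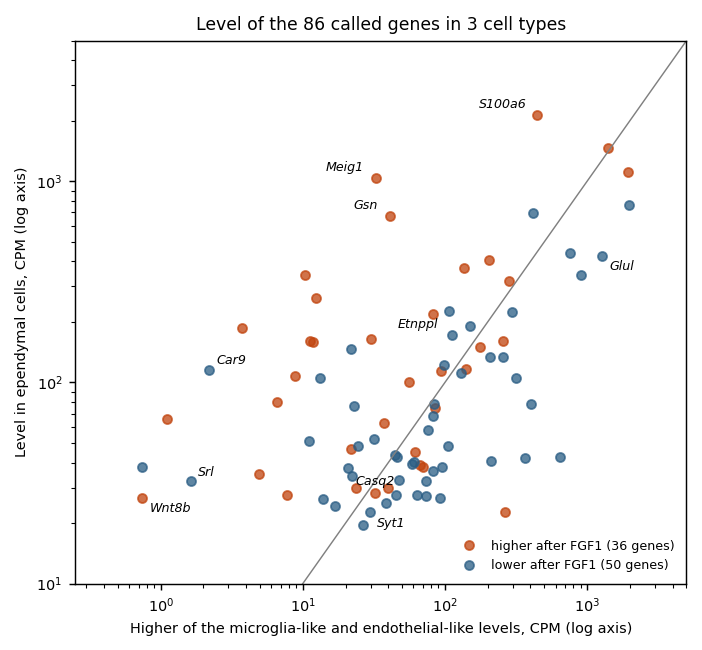
Level of the 86 DEGs in ependymal cells (y axis, CPM, log axis) against the higher of their levels in microglia-like and endothelial-like cells (x axis, CPM, log axis), with 1 point per gene (orange, higher after FGF1; blue, lower) and a line of equality. Genes such as Car9, Srl, Wnt8b, Meig1 and Gsn lie above the line, and Glul and Syt1 lie below it.

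Of 15 immediate early genes tested with edgeR, 0 were called (6 at an unadjusted p below 0.05, against 13.5% of all genes, 1 with DESeq2, and 1 with the batch as a block), and none of the log2 fold changes was above 0, with a median of -0.48. Dusp1, a phosphatase that switches off MAP kinases, lay at 39.9, 109 and 176 CPM against 149, 307 and 730 CPM (-1.56 ± 0.45, FDR = 0.155). Fos lay at 644, 991 and 1732 CPM against 936, 1797 and 2522 CPM (-0.60 ± 0.31, FDR = 0.438), and for both genes the groups overlapped. Of 7 FGF receptors, ligands and co-receptors tested with edgeR, 0 were called (3 at an unadjusted p below 0.05, 0 with DESeq2, and 1 lower with the batch as a block), and the median was -0.34. Fgfr3 lay at 72.3, 91.9 and 199 CPM against 94.7, 149 and 183 CPM (-0.61 ± 0.18, FDR = 0.0727), and Fgfr1 had a value of -0.34 (FDR = 0.312). Of 16 listed feedback and target genes of the MAPK pathway, 3 had enough counts to be tested with edgeR, and 0 were called (1 at an unadjusted p below 0.05, 0 with DESeq2).

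Of 82 cytosolic ribosomal protein genes, 1 was called higher, against 0.535% of all genes. This was Rplp0, at 1225, 1399 and 1690 CPM against 592, 968 and 1163 CPM without overlap (0.62 ± 0.15, FDR = 0.0251), and the list had a median of 0.22. Of 14 heat shock genes, 1 was called higher, Hsp90ab1, at 1193, 1837 and 2096 CPM against 912, 1206 and 1475 CPM (0.57 ± 0.15, FDR = 0.0433), with a list median of 0.11. Among 76 nuclear genes of oxidative phosphorylation, 0 were called with edgeR (5 at an unadjusted p below 0.05, 0 with DESeq2). Among 19 ependymal surface and secreted genes, 0 were called with edgeR (3 at an unadjusted p below 0.05, 0 with DESeq2), with a median of 0.04. Rarres2, the precursor of the chemoattractant chemerin, lay at 1430, 2033 and 2681 CPM against 1219, 1884 and 2632 CPM (0.10 ± 0.18, FDR = 0.879). Among 11 reactive glia genes (median 0.26) 0 were called with edgeR (5 at an unadjusted p below 0.05, against 13.5% of all genes, and 1 with DESeq2), and among 8 complement and chemokine genes (median 0.13) 0 were called (0 also at an unadjusted p below 0.05 and with DESeq2). Vim, an intermediate filament gene of reactive glia, lay at 708, 809 and 964 CPM against 566, 621 and 784 CPM (0.35 ± 0.14, FDR = 0.242).

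Whether the effect of FGF1 differed between ependymal cells and tanycytes (clusters 0, 7 and 10, 14404 cells) was tested as an interaction with the mouse as a block. It differed for 37 of 9061 genes (0.408%), for 8 of the 86 ependymal DEGs. Of these 86, 72 had the same sign in tanycytes and 38 were also called there. In tanycytes alone 5.08% of genes were called, and both cell types came from the same 12 mice. Pvalb had a difference of 2.10 ± 0.30 (FDR = 1.1e-05), with log2 fold changes of 0.97 in ependymal cells and -1.03 in tanycytes. Flrt2 (1.27 ± 0.30, FDR = 0.0284) rose in ependymal cells and had a value of -0.16 in tanycytes (FDR = 0.692). Creb5 (-1.33 ± 0.23, FDR = 0.000133), a transcription factor, fell in ependymal cells and had a value of 0.51 in tanycytes (FDR = 0.0618). Other genes differed the other way. Vim had log2 fold changes of 0.35 in ependymal cells and 1.02 in tanycytes (difference -0.65 ± 0.12, FDR = 0.000578), and Msn, which encodes the actin linker moesin, -0.20 and 0.73 (difference -0.92 ± 0.15, FDR = 7.7e-05). Plat, which encodes tissue plasminogen activator, had -0.65 and 0.80 (difference -1.39 ± 0.25, FDR = 0.000223). Tm4sf1 had 0.17 and 1.13 (difference -0.90 ± 0.16, FDR = 0.000223), although its level in PF vehicle mice was 719 ± 95.2 CPM (SD, n = 6) in ependymal cells and 23.4 ± 5.74 CPM in tanycytes. For Dbp (0.74 ± 0.15), Itih3 (0.67 ± 0.15) and Dnajc6 (0.93 ± 0.21) the fall in tanycytes was larger than the value in ependymal cells. Without the mouse as a block, 0 genes passed and 383 had an unadjusted p below 0.05.

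Against astrocytes (clusters 1 and 4, 13580 cells), 689 of 9166 genes differed (7.52%), among them 37 of the 86 ependymal DEGs, and in astrocytes alone 12.6% of genes were called. Of the 86, 57 had the same sign in astrocytes and 31 were also called there. Of the differences, 323 (3.52%) were higher and 366 (3.99%) lower in ependymal cells, and with RLE scaling, which moved the median difference to -0.10, 212 and 505. Aqp4 had log2 fold changes of 0.04 in ependymal cells and 1.53 in astrocytes (difference -1.39 ± 0.16, FDR = 6.28e-12). Its level was 260 ± 40.1 and 265 ± 58.4 CPM in ependymal cells of FGF1 and PF vehicle mice, and 829 ± 179 and 270 ± 32.4 CPM in astrocytes (SD, n = 6). Plat (-2.28 ± 0.19), Sulf2 (-2.11 ± 0.18), a heparan sulfate editing enzyme, Hist1h4h (-2.08 ± 0.21) and Vim (-1.42 ± 0.18) had lower values in ependymal cells. For Hist1h4h the values were -1.05 in ependymal cells and 1.03 in astrocytes (FDR = 0.0231 and 0.0321). Cdkn1a (1.48 ± 0.20), an inhibitor of the cell cycle, Stmn2 (1.12 ± 0.18), Malat1 (1.05 ± 0.17) and Hes1 (1.05 ± 0.16), a target of Notch, had a negative value in astrocytes beside one between 0.08 and 0.39 in ependymal cells. Stmn2 is a neuronal marker, at 107 CPM in ependymal cells and 94.2 CPM in all other cells, and the source of its UMIs was not tested. Of 82 ribosomal protein genes, 43 were called with a higher value in ependymal cells and 0 with a lower one (median difference 0.46). Of 78 oxidative phosphorylation genes, 27 were called with a higher value and 0 with a lower one (median difference 0.40). Without the mouse as a block, 169 genes differed.

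Of the 23 gene lists, that of antigen presentation and interferon response had the widest range of summed level between mice. Of 22 genes of the list 12 were tested, and 0 were called in the comparison of treatments (0 also at an unadjusted p below 0.05 and with DESeq2), with a median log2 fold change of 0.11. Their summed level in ependymal cells was 16175 CPM in PF vehicle mouse 22 and 13640 CPM in FGF1 mouse 6, the 2 mice of batch 3. It was 8802 CPM in FGF1 mouse 7, 3904 CPM in FGF1 mouse 28 and 2561 CPM in FGF1 mouse 10, and between 825 and 1383 CPM in the other 7 mice. The highest mouse was 19.6-fold above the lowest. In tanycytes, astrocytes, microglia-like and endothelial-like cells this range was 4.71-fold, 5.82-fold, 5.22-fold and 3.35-fold, and the 2 mice of batch 3 were the highest in each.

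The following levels of single genes of this list are CPM without TMM scaling. B2m, the light chain of MHC class I, was counted at 4799 CPM in PF vehicle mouse 22, 4363 CPM in FGF1 mouse 6 and 1281 CPM in FGF1 mouse 7, against 56.0 to 396 CPM in the other 9. H2-K1, a class I heavy chain, was counted at 3134 CPM in PF vehicle mouse 22 and at 62.7 CPM in the lowest mouse, and Ifitm3, which restricts the entry of viruses into cells, at 3720.03 CPM in FGF1 mouse 6 and at 298 CPM in the lowest mouse. Ifi27 was counted at 964 CPM in FGF1 mouse 6, 918 CPM in FGF1 mouse 7, 675 CPM in FGF1 mouse 28 and 658 CPM in PF vehicle mouse 22, against 87.9 CPM in the lowest mouse. The level was spread over the cells and not held by a few of them. The tenth of cells with the most UMIs of the list held 25.6 to 36.9% of them in every mouse, and the median cell of PF vehicle mouse 22 had 14592 CPM of the list against 704 CPM in PF vehicle mouse 27.

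Within batches, the FGF1 mouse had the higher summed level in ependymal cells in 5 of 6. The exception was batch 3, whose FGF1 mouse 6 gave 19 ependymal cells. In tanycytes, astrocytes, microglia-like and endothelial-like cells, the FGF1 mouse had the higher level in every batch. With the batch as a block the median log2 fold change in ependymal cells was 1.34. In this fit 1 member was called, against 2.24% of all genes. It was Irf9, a subunit of the interferon-induced transcription factor complex, named after its value was seen (1.57, FDR = 0.000437). The following fits were added after the data had been seen. Without both mice of batch 3, Ifitm3 had a log2 fold change of 1.75 and B2m of 2.33, and neither passed (FDR = 0.103 and 0.198). With the batch as a block and without batch 3, 142 of 6795 genes were called. Among them was Psmb9, a subunit of the immunoproteasome named after its value was seen (2.22, FDR = 0.0438). Why the mice differed was not tested.

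**Figure D5:**
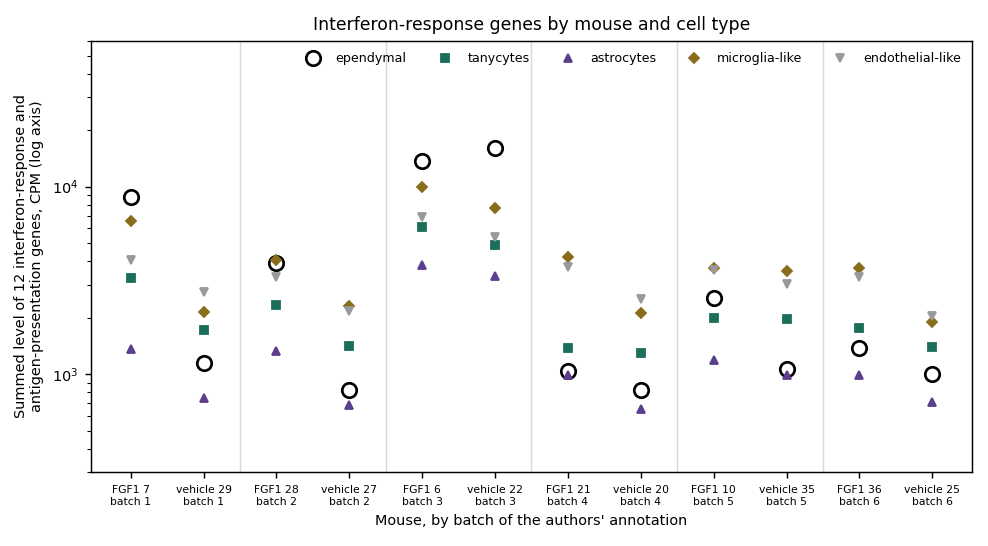
Summed level of 12 interferon-response and antigen-presentation genes (y axis, CPM, log axis) in each mouse (x axis, ordered by batch) for ependymal cells (open symbols) and 4 other cell types (filled symbols). Both mice of batch 3 are highest, and ependymal cells span 825 to 16175 CPM, a wider range than the other types.

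On Day 1, ependymal nuclei of 6 other mice (13 to 23 per mouse, 55743 to 81664 UMIs) were compared in the same way. Single-nucleus RNA sequencing (snRNA-seq) counts nuclear RNA, and these nuclei carry the authors' own annotation, so day, mice, substrain, supplier, chow and method all differ from the whole cells. Of 1456 genes tested, 19.0% were called, 10.2% as higher and 8.86% as lower. Of the 5 cluster markers, none of which was called on Day 5, 4 could be tested here and 3 were called lower. Levels on Day 1 are CPM without TMM scaling and follow the order of the replicate numbers. Ccdc153 was counted at 122, 73.5 and 144 CPM in the FGF1 mice and at 673, 808 and 616 CPM in the PF vehicle mice (log2 fold change -2.65 ± 0.34), and Cdhr3 at 45.9, 98.0 and 161 CPM against 413, 165 and 415 CPM (-1.75 ± 0.46, FDR = 0.0121). The groups did not overlap for Ccdc153. For Cdhr3 the highest FGF1 mouse (161 CPM) and the lowest PF vehicle mouse (165 CPM) lay close together. Cd24a had a value of -0.47 and did not pass (FDR = 0.315), and Hdc had too few counts to be tested. Tmem212 (-1.47), Dynlrb2 (-1.90) and Dnah12 (-1.71) were called lower as well, and of 19 axonemal dynein genes tested 7 were called lower and 0 higher, with a median of -0.60. For 13 ependymal surface and secreted genes the counts were 7 lower and 0 higher.

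S100a6, which rose by 0.65 on the log2 scale on Day 5, was counted on Day 1 at 2879, 3233 and 3947 CPM against 367, 495 and 501 CPM (2.87 ± 0.34). Anxa2 was counted at 1562, 1641 and 1866 CPM against 214, 363 and 172 CPM (2.76 ± 0.34), and Vim, not called on Day 5, at 2297, 2339 and 2709 CPM against 306, 627 and 415 CPM (2.44 ± 0.34). The lists went the same way, with 7 of 10 S100, annexin and galectin genes, 9 of 12 reactive glia genes and 21 of 62 ribosomal protein genes called higher and 0 lower in each. Etnppl was lower on both days, at 45.9, 0 and 35.9 CPM against 657, 445 and 158 CPM on Day 1 (-3.97 ± 0.74, FDR = 0.00363). Of the 86 DEGs of Day 5, 24 could be tested on Day 1, and 12 of them were among the 277 genes called there, 11 in the same direction. The exception was Neat1, a nuclear non-coding RNA, with log2 fold changes of 0.97 in Day 1 nuclei and -0.72 in Day 5 cells. Day 5 nuclei were not tested, because the PF vehicle mice gave 3 and 8 ependymal nuclei.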

How the data were processed

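Whole hypothalamic cells of 12 mice and nuclei of 10 mice were each deposited by the authors as a table of raw counts, the number of UMIs per gene and barcode, with a metadata table that gives the library and the cluster of each barcode. Libraries were made with the 10x Genomics 3′ v2 kit and sequenced on a NextSeq 500, and the submitters' processing notes name Cell Ranger 1.2, Seurat and the build GRCm38. The metadata deposited by the authors also hold the percent of UMIs of each barcode from mitochondrial and from ribosomal genes. Before deposit, the authors had set limits on genes per cell and on mitochondrial and ribosomal content. From the whole cells they had also removed neurons and, with Scrublet, doublets. In the deposited metadata, 133 cells of cluster 6 lay above the study's limit of 20% for mitochondrial or ribosomal UMIs. They were kept, and without them 86 genes were called as well (37 higher, 49 lower). No further cell filter or doublet caller was applied here, and the deposited counts of no other series' samples were used.

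Counts were summed per mouse over the cells of a cluster, with at least 10 cells per mouse, and tested with edgeR 4.0.16 (R 4.3.3) by the quasi-likelihood test after filterByExpr and TMM scaling, with Benjamini-Hochberg adjustment over all genes tested and a threshold of 0.05. The study's own test on summed counts, DESeq2 (1.42.0), was run as an alternative. Differences between cell types were tested as interactions with the mouse as a block. For single values, mice were permuted exactly between the groups (two-sided test) (scipy 1.17.1). Residual variance was computed within mice from a negative binomial model with a theta of 100. The tests were checked on simulated data. Intervals and limits from counts cover counting error only, and 3 counts were taken as the limit that a count of 0 allows. Positions are from GENCODE vM21 on GRCm38.

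Genes named were the 5 markers, the 12 largest increases and 12 largest decreases among DEGs with a mean of at least 20 CPM, DEGs in a gene list, the 4 members with the highest level of each list, up to 5 genes per direction of each interaction, the 10 leading and the 15 most variable genes. A few genes that met this rule are not reported here. Others are marked in the text as chosen after their values were seen. The members and gene lists were chosen with earlier results of these data known. Each mouse was 1 sample, and the batch numbers of the metadata paired 1 FGF1 with 1 PF vehicle mouse, with correlations of deviations from -0.06 to 0.13 within pairs, so the batch entered as an alternative and not in the main test. These correlations are over all genes tested, and single lists can differ, as both mice of batch 3 had high levels of the interferon list. Other alternatives were RLE scaling, no filter on low counts, equal numbers of cells per mouse, leaving out each mouse, and marker levels as covariates.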

Additional observations from a re-analysis of the deposited data

Results flagged for a closer look

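Of 198 groups of 6 mice examined, 24 held a mouse whose gap to the nearest other mouse was above Dixon's 95% critical value for the gap relative to the range, and chance alone flags about 1 in 20 groups. FGF1 mouse 6, with 19 cells, was that mouse in 11 groups and PF vehicle mouse 22 in 7. FGF1 mouse 6 stood apart in its share of ependymal cells (0.796%), in its summed level of markers of oligodendrocyte precursors (184 CPM) and, in TMM-scaled CPM, for Foxj1 (597), B2m (3778), Abca1 (39.8), Mlf1 (676), 2900052N01Rik (39.8), Gjb6 (119), Gstm1 (318), Ak8 (0) and Calb1 (0). At 19 cells, 1 UMI is worth 39.8 CPM in this mouse. PF vehicle mouse 22 stood apart in the summed level of interferon genes (16175 CPM) and, in TMM-scaled CPM, for Ifitm3 (3917), B2m (5438), H2-K1 (3551), Ifi27 (745), S100a6 (2264) and Gsn (776).

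The other mice that stood apart were FGF1 mouse 21 in the summed level of red blood cell markers (343 CPM), FGF1 mouse 10 for Tmem212 (1982 CPM), PF vehicle mouse 20 in the summed level of choroid plexus markers (284 CPM) and for Anxa2 (254 CPM), PF vehicle mouse 27 for Cdhr3 (289.9 CPM) and PF vehicle mouse 35 for Rsph1 (988 CPM).

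The effect of FGF1 differed between cell types by the interaction test in the following 20 cases, up to 5 per direction and cell type, with some genes in both. Against tanycytes, the difference in log2 fold change was 2.10 for Pvalb, 1.27 for Flrt2, 0.93 for Dnajc6, 0.74 for Dbp, 0.67 for Itih3, -1.39 for Plat, -1.33 for Creb5, -0.92 for Msn, -0.90 for Tm4sf1 and -0.65 for Vim. Against astrocytes, it was 2.13 for Pvalb, 1.48 for Cdkn1a, 1.12 for Stmn2, 1.05 for Hes1, 1.05 for Malat1, -2.28 for Plat, -2.11 for Sulf2, -2.08 for Hist1h4h, -1.42 for Vim and -1.39 for Aqp4. Other genes of the text also passed, among them S100a11 (-0.54 against tanycytes and -1.19 against astrocytes) and, against astrocytes, Etnppl (-1.13), Anxa2 (-0.80) and S100a6 (-0.53).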

How the results depend on the processing

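The 86 DEGs became 52 with DESeq2 (27 higher, 25 lower; 104 without FGF1 mouse 6, with 73 higher and 31 lower, added after the data had been seen), 146 without the filter on low counts and 151 with the batch as a block, and RLE scaling gave 103. Drawing the same number of cells from each mouse left 392 genes to test and 10 DEGs. The following were added after the data had been seen. Equal numbers of cells without FGF1 mouse 6 gave 52, the batch block without FGF1 mouse 6 gave 146, leaving out both mice of batch 3 gave 155, and 142 with the block. The astrocyte marker level as a covariate gave 5, and the oligodendrocyte marker level 107. Leaving out 1 mouse gave 30 (without PF vehicle mouse 29) to 151 DEGs (without PF vehicle mouse 22), with 33 to 50 without FGF1 mouse 10, 21 or 36 or PF vehicle mouse 20 or 25, and 143 without PF vehicle mouse 35. The interaction with tanycytes gave 0 genes with no replicate block, where the replicate is the mouse, and 16 (without PF vehicle mouse 25) to 52 when 1 mouse was left out. That with astrocytes gave 169 with no replicate block and 451 (without PF vehicle mouse 20) to 854 when 1 mouse was left out. In Day 1 nuclei the count lay between 175 (without PF vehicle mouse 1) and 291 when 1 mouse was left out. There the replicate numbers of the labels did not pair the mice (correlations of deviations of -0.02, -0.14 and -0.04), and a replicate block gave 230 DEGs. The batches of the nuclei metadata paired the mice otherwise, and a batch block, which was not planned, gave 214 (108 higher, 106 lower). The difference in the share of ependymal cells, -0.60 percentage points, ranged from -1.14 to 0.48 when 1 mouse was left out, and was above 0 without FGF1 mouse 6 (0.48) and without PF vehicle mouse 27 (0.07). As a share of ependymal cells and tanycytes it was -13.1. Where no construction of the alternative shows it, the cause was not tested. No fold change computed for the 50 named DEGs changed direction under these alternatives. However, DESeq2 gave an adjusted p for 27 of them only. Equal numbers of cells left 11 of them to test and, without FGF1 mouse 6, 37. Depth limits FGF1 mouse 6 most, and Day 5 nuclei were not run because 2 mice had under 10 ependymal nuclei.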
